A study of Mus musculus with 39 samples.

Results

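Kruppel-like factors (KLFs) are transcription factors that bind GC-rich and CACCC-containing promoter DNA through C2H2 zinc fingers at the carboxy-terminal end of the protein. Outside the fingers the proteins differ, and the family holds activators as well as repressors that recruit corepressor complexes. Klf2, Klf4 and Klf5 are known for sustaining self-renewal of mouse embryonic stem cells, Klf5 is also needed for the outer trophectoderm layer and the inner cells of the blastocyst, and Klf17 is a family member of oocytes and early embryos. The transcripts described here are those of Klf2, Klf3, Klf4, Klf5, Klf6, Klf9, Klf10, Klf13, Klf16 and Klf17, taken by name, 10 of the 55487 genes in the count table. All 10 were found, and 9 passed the filter on low counts, Klf6 being the exception.

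RNA was sequenced from wild-type (WT) mouse embryos in 39 libraries, each from 1 whole embryo or from 1 blastomere of an embryo that had been taken apart. At the 2-cell stage 5 embryos were intact and 5 separated, and at the 4-cell stage 4 were intact and 5 separated, so that the 19 embryos are the replicates. No strain, treatment, culture time or parent animal is named for any group, and a p-value therefore measures no more than the variation among these embryos, some of which may be technical. The 3 separated 4-cell embryos numbered 2, 3 and 4 carry the label batch 1, like all other embryos, and the 2 numbered 6 and 7 carry the label batch 2.

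The libraries held between 2.02 and 44.05 M counts (M, mega). Intact 4-cell embryos (2.74 to 4.19 M) were shallower than intact 2-cell embryos (7.16 to 9.89 M), and the separated 4-cell embryos of batch 1 (13.0 to 15.8 M, summed over blastomeres) shallower than those of batch 2 (86.8 to 103 M). All 10 oocyte and early embryo markers had counts in every group, with summed levels of 32238 to 55672 CPM (counts per M) in intact 2-cell and 20330 to 33026 CPM in intact 4-cell embryos. The 8 markers of the 2-cell stage summed to 1515 CPM or more in each 2-cell embryo and to 147 CPM or less in each 4-cell embryo. Markers of cumulus and granulosa cells summed to at most 43.8 CPM in any embryo, in the separated 2-cell group, where only Amh and Tnfaip6 had counts. Of these 10 markers, 3 had counts in intact 2-cell and 2 in separated 2-cell embryos. At the 4-cell stage 1 had counts in intact and 5 in separated embryos. Markers of blood, sperm and oviduct summed to at most 50.2, 30.3 and 15.5 CPM.

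The finger region is what makes these genes a family. A run of 243 bases coding for the zinc fingers was found in the GENCODE M21 transcripts of 10 of 10 genes, and it was aligned without gaps. Between 53.1% (Klf10 and Klf17) and 78.2% (Klf2 and Klf4) of its bases were identical in the 45 pairs of genes, with a median of 62.6%. The third finger is shown for Klf2, Klf4 and Klf5, which share roles in stem cells, for Klf17, and for Klf9 as one of the repressors, so that the differences between them can be seen. It is printed 5′ to 3′ on the coding strand, with the codons of the zinc-binding cysteines and histidines in capitals.

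Klf2: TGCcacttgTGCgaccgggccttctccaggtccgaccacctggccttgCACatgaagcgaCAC

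Klf4: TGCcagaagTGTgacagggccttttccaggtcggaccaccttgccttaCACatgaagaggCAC

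Klf5: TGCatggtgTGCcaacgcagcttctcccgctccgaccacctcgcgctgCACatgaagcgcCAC

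Klf17: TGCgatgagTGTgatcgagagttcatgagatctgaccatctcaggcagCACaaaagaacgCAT

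Klf9: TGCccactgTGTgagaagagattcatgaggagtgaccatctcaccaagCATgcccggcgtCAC

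Of the stem cell factors, Klf5 shared 70.4% of the finger bases with Klf2 and 68.3% with Klf4. It shared 73.7% with Klf3 and 70.0% with Klf6, so the gene closest to Klf5 in these bases was not a stem cell factor. Klf2 and Klf4, in contrast, were the most alike of all pairs (78.2%). Klf17 shared 62.1% with Klf2, 62.1% with Klf4 and 56.4% with Klf5. The longest stretch identical between the transcripts of any 2 of the genes was 24 bases, in Klf5 and Klf9, with a median of 14 bases over the pairs. Non-whole expected counts of a gene can arise where reads are divided between genes. They were present for Klf2 and Klf3 in 4 libraries each, for Klf9 and Klf10 in 1 library each and for the other 6 genes in none.

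The 2 genes that were higher in every intact 4-cell embryo than in any intact 2-cell embryo, Klf2 and Klf17, lie on different chromosomes. Klf2 spans chr8:72319033-72321656 on the plus strand (GRCm38, GENCODE M21) and Klf17 spans chr4:117757836-117765648 on the minus strand. Their promoter sequence from RefSeq (GRCm38.p6), the first 220 bases of a window that begins 250 bases before the annotated start, is printed 5′ to 3′ on the strand of the gene, because these are the genes whose intact groups did not overlap. Capitals mark CACCC and GGGCGG on either strand, the letters searched for as the core of KLF and SP binding elements.

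Klf2 (chr8:72318812-72319031, plus strand): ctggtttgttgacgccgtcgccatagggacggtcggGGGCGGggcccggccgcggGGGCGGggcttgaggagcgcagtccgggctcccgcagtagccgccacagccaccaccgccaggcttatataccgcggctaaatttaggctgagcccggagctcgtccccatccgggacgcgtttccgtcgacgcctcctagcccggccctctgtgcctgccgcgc

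Klf17 (chr4:117765697-117765916, minus strand): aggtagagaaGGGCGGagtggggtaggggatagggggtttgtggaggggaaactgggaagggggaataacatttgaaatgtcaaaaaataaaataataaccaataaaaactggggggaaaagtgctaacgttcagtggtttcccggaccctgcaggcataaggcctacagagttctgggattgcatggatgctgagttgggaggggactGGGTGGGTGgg

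The Klf2 window held GGGCGG 2 times and CACCC 0 times, and 71.4% of its bases were G or C. The Klf17 window held GGGCGG 1 time and CACCC 2 times on the opposite strand, in matches that share bases, and 50.5% of its bases were G or C. Among all 32817 promoter windows of this length, 47.8% held CACCC and 28.5% held GGGCGG, and a match is a description of letters only. Promoters of 7 of the 10 genes matched an entry of the table. The other 5 held from 0 to 5 matches to CACCC and from 0 to 6 to GGGCGG, the most of both in Klf3, where 1 pair of matches overlaps.

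To compare genes of unequal length, CPM were divided by the length of exon in kb. This length joins all annotated exons of a gene, from 1.85 kb for Klf2 to 11.2 kb for Klf3. It can exceed the length of the transcripts present, and the order of the genes depends on it. At the 2-cell stage Klf5 had the highest mean level per kb in intact (21.7 ± 13.7 CPM per kb, SD, n = 5) and in separated embryos (19.9 ± 6.38, n = 5). Klf17 was second, at 12.8 ± 5.18 and 18.1 ± 6.88 CPM per kb. The ranges of Klf5 (4.996 to 43.2) and Klf17 (6.27 to 19.5) overlapped in intact embryos, so their order did not exceed the spread between embryos.

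In intact 4-cell embryos the order was different. Klf2 was at 49.2 ± 22.5 CPM per kb (n = 4), Klf17 at 41.4 ± 7.43 and Klf5 at 20.4 ± 3.33. Klf2 and Klf17 overlapped in range, while the highest Klf5 embryo (23.8) was under the lowest embryo of Klf2 (27.1) and of Klf17 (33.0). Klf9 and Klf4 followed, at 10.9 ± 6.37 and 10.2 ± 7.58 CPM per kb, and the other 5 genes were at 2.52 or less. In separated 4-cell embryos of batch 1 Klf5 was second (55.4 ± 13.3 CPM per kb, n = 3). It stood between Klf2 (70.4 ± 13.8) and Klf17 (32.8 ± 14.8), and its range overlapped both. In batch 2 (n = 2) the order was Klf17 (204 ± 91.5), Klf2 (86.6 ± 7.60) and Klf5 (39.3 ± 21.3).

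The 10 genes together summed to a mean of 70.1 CPM per kb in intact 2-cell and 71.9 in separated 2-cell embryos, and to 137 in intact 4-cell embryos. The sum was 192 CPM per kb in the separated 4-cell embryos of batch 1 and 373 in those of batch 2. Klf2 made up 7.89% of the sum in intact 2-cell and 35.9% in intact 4-cell embryos, and Klf5 30.9% and 14.9%. Klf5 was the highest of the family in 3 of 5 intact and 4 of 5 separated 2-cell embryos. In the intact 4-cell embryos Klf17 was highest in 2 and Klf2 in 2. In the separated 4-cell embryos Klf17 was highest in 2, Klf2 in 2 and Klf5 in 1.

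**Figure D1:**
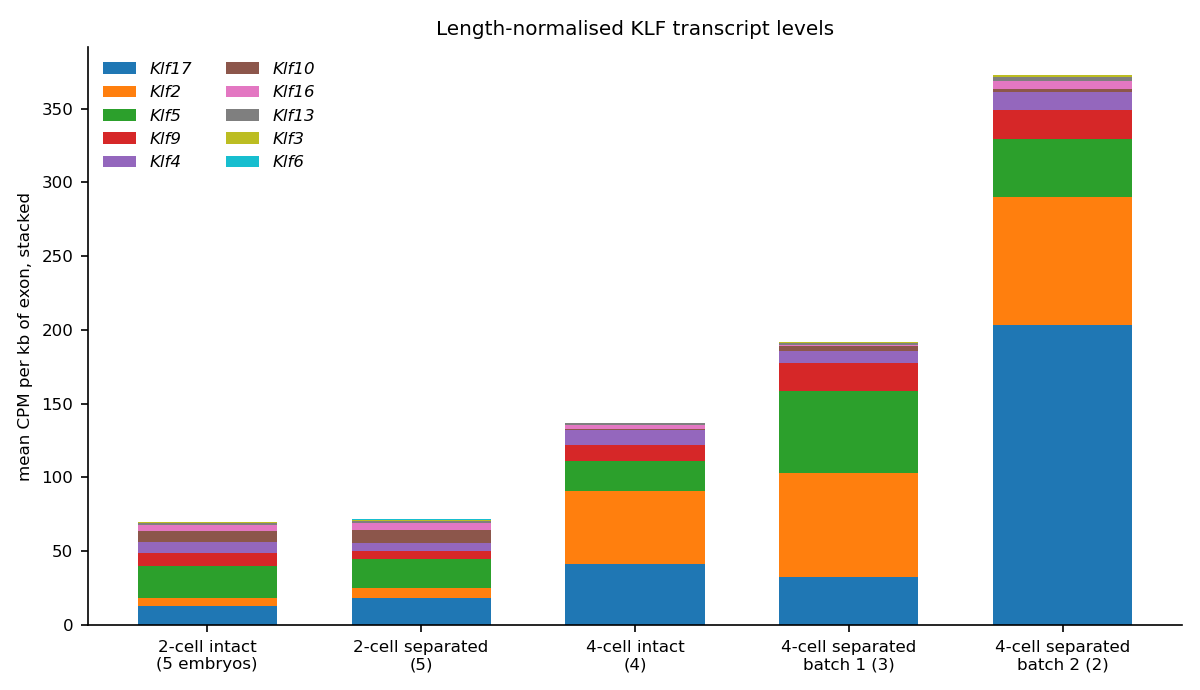
Stacked bars of the mean CPM per kb of exon of the 10 KLF genes in each group of embryos, with the 4-cell separated embryos drawn by batch. The stack reaches 70.1 in intact 2-cell and 137 in intact 4-cell embryos, with Klf17 and Klf2 the thickest layers in intact 4-cell embryos and Klf5 in both 2-cell groups.

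Klf2, a factor first known from lung and endothelium and later from naive stem cells, had the largest fitted difference between the stages in intact embryos among the 9 genes tested. Its levels in the 5 intact 2-cell embryos were 30.3, 0.164, 4.89, 7.84 and 7.89 CPM (scaled by TMM, as are all levels of embryos), a mean of 10.2 ± 11.7 (SD). In the 4 intact 4-cell embryos they were 75.4, 148, 50.1 and 89.9 CPM, a mean of 90.9 ± 41.5. CPM are shares of an embryo's transcripts, so that more RNA per cell and more cells with the gene cannot be told apart in an intact embryo. The separated 2-cell embryos were at 0.178, 4.94, 19.95, 39.5 and 0.135 CPM and the separated 4-cell embryos at 120, 111, 159, 150 and 170 CPM.

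Every 4-cell embryo was above every 2-cell embryo, with 39.5 CPM the highest of the 10 and 50.1 CPM the lowest of the 9. Klf2 was the only one of the 9 genes tested to separate the stages over all 19 embryos, against 2.31% of the 14119 genes tested that were higher at the 4-cell stage in this way. The log2 fold change was 3.15 ± 1.17 (SE) in intact embryos, and the edgeR quasi-likelihood test did not pass the threshold of 0.05 after Benjamini-Hochberg adjustment (adjusted p = 0.0873). In separated embryos it was 3.33 ± 1.22 (edgeR adjusted p = 0.0821). With DESeq2 both comparisons passed (adjusted p = 0.0196 and 0.0207), as they did in edgeR without the filter on low counts (0.000988 and 0.00135). Over all alternatives the adjusted p ran from 0.000988 to 0.201 in intact and from 0.00135 to 0.184 in separated embryos.

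Klf17 rose from the 2-cell to the 4-cell stage in intact embryos. Its levels were 21.7, 34.7, 15.1, 34.9 and 46.8 CPM in intact 2-cell embryos (30.6 ± 12.4) and 98.9, 96.7, 123 and 79.1 CPM in intact 4-cell embryos (99.3 ± 17.8). The lowest 4-cell embryo was above the highest 2-cell embryo. The log2 fold change was 1.70 ± 0.42 (SE, edgeR adjusted p = 0.0147).

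Klf17 was thus the 1 of 9 genes of the family called in this comparison, higher at the 4-cell stage, where edgeR called 10.4% of all genes tested, 5.41% higher and 4.99% lower, so that the family's share was close to the background. Klf2 and Klf17 were the 2 genes whose intact groups did not overlap with the 4-cell stage higher, as for 9.87% of all genes tested. Over the family the median log2 fold change was 0.24, beside 0.00 over all genes tested. The Klf17 call was lost without intact 4-cell embryo 3 (adjusted p = 0.0504) or embryo 4 (0.0645), without the filter on low counts (0.0606), without a batch term (0.0787) and with limma voom (0.429), the highest value over the alternatives, whose lowest was 0.0011.

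In separated embryos Klf17 was at 24.8, 66.1, 36.4, 54.3 and 35.4 CPM at the 2-cell stage (43.4 ± 16.5). At the 4-cell stage it was at 38.1, 95.4 and 103 CPM in batch 1 (78.8 ± 35.5) and at 333 and 644 CPM in batch 2. The batch 1 embryo 2, at 38.1 CPM, lay among the 2-cell embryos, and the groups overlapped. The log2 fold change, which takes the 4-cell level from batch 1, was 0.86 ± 0.45 (edgeR adjusted p = 0.217). Without the batch term, which puts batch 2 into the 4-cell level, it was 2.48 (edgeR adjusted p = 0.00779). The change with stage did not differ detectably between separated and intact embryos (interaction −0.84 ± 0.62, edgeR adjusted p = 0.833, 95% interval −2.14 to 0.47).

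Klf5 was the family member called between the stages in separated embryos. It was at 89.8, 162, 92.6, 84.0 and 88.1 CPM in separated 2-cell embryos (103 ± 33.2). In separated 4-cell embryos it was at 354, 217 and 294 CPM in batch 1 (288 ± 69.1) and at 126 and 283 CPM in batch 2. All 3 embryos of batch 1 were above all 2-cell embryos, while embryo 6 of batch 2, at 126 CPM, was below the 2-cell embryo at 162 CPM.

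Klf5 rose by a log2 fold change of 1.48 ± 0.47 (SE, edgeR adjusted p = 0.0464), the 1 of 9 genes of the family called, against 11.1% of all genes tested, 6.4% higher and 4.7% lower, again a share close to the background. The family's median log2 fold change was 0.72, beside −0.15 over all genes tested. The call was close to the threshold: leaving out any of 16 of the 19 embryos ended it, with an adjusted p of up to 0.148, as did limma voom (0.0538) and the fit without a filter (0.115). The lowest adjusted p over the alternatives was 0.0144. Klf2 and Klf9 were higher in all 5 separated 4-cell embryos than in all separated 2-cell embryos, as were 7.17% of all genes tested. With batch 1 alone Klf2, Klf5 and Klf9 were, against 11.7%.

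In intact embryos Klf5 was not called. It was at 225, 25.98, 112, 98.1 and 103 CPM in intact 2-cell embryos (113 ± 71.3) and at 95.8, 124, 87.3 and 117 CPM in intact 4-cell embryos (106 ± 17.3). The 4-cell embryos all lay within the range of the 2-cell embryos, and the log2 fold change was −0.09 ± 0.44 (edgeR adjusted p = 0.928, 95% interval −1.01 to 0.83). The interaction of stage and separation was 1.57 ± 0.65 (unadjusted p = 0.0250, edgeR adjusted p = 0.482), and so the difference between the 2 stage changes did not pass. No gene of the family, and 0.0% of all genes tested, was called for the interaction, with 1228 of 14119 genes at an unadjusted p under 0.05 and 517 called by DESeq2.

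**Figure D2:**
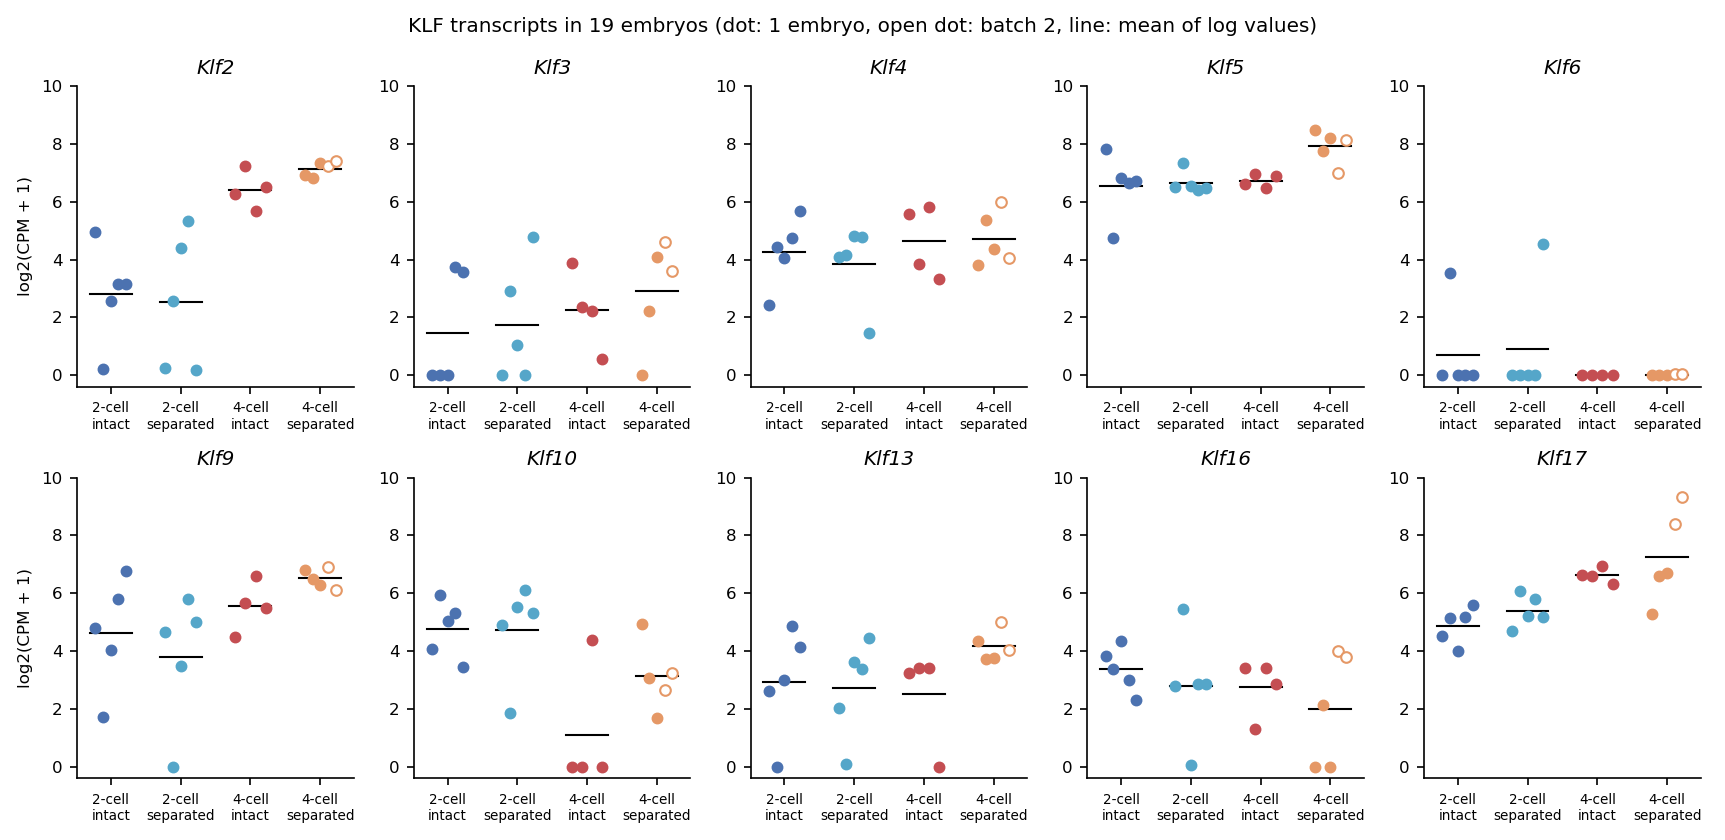
Each panel plots log2(CPM + 1) of 1 KLF gene in 19 embryos by group, with open dots for batch 2 and a line at the mean of the log values. Klf2 shows 4-cell dots above all 2-cell dots, Klf5 shows separated 4-cell dots above the intact ones, and Klf6 is at or near 0 outside 2 embryos.

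Klf4, the reprogramming factor, was present in 10 of 10 2-cell and 9 of 9 4-cell embryos without a called change. It had 23.4 ± 17.0 CPM in intact 2-cell, 17.7 ± 10.4 in separated 2-cell, 31.0 ± 23.1 in intact 4-cell and 24.4 ± 14.3 in separated 4-cell embryos of batch 1. Single embryos ran from 1.75 to 50.2 CPM at the 2-cell and from 9.03 to 61.9 CPM at the 4-cell stage, ranges that overlap almost fully. The log2 fold change with stage was 0.41 ± 0.84 in intact and 0.46 ± 0.91 in separated embryos.

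Klf6, a broadly expressed activator also known as a core promoter element binding protein, was absent from most libraries. It had 10.7 CPM in intact 2-cell embryo 2 and 22.1 CPM in separated 2-cell embryo 5, and 0 counts in the other 8 2-cell embryos. No intact 4-cell embryo had a count, which allows up to 0.733 to 1.12 CPM per embryo (3 counts). This limit covers counting error only, since the reads were amplified by PCR without molecular tags. The 2 embryos of batch 2 had 7 counts between them, 0.0301 and 0.0279 CPM.

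Among the genes whose proteins are known as repressors, Klf10 stood lower at the 4-cell stage without passing the test. Klf10, a gene induced early by TGF-beta that recruits the Sin3 corepressor, was at 15.9, 60.2, 31.5, 39.2 and 9.83 CPM in intact 2-cell embryos (31.3 ± 19.96). Of the 4 intact 4-cell embryos 3 had 0 counts, with limits of 0.733 to 1.12 CPM over the group, and embryo 4 had 19.8 CPM. The log2 fold change was −2.65 ± 1.46 (edgeR adjusted p = 0.243), and that 1 embryo lay within the 2-cell range. The test passed without that embryo (edgeR adjusted p = 0.00257), when no intact 4-cell embryo has a count, and with limma voom (0.00295), and the adjusted p over all alternatives ran from 0.00257 to 0.363.

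In separated embryos Klf10 was at 28.8, 2.61, 45.5, 67.5 and 38.6 CPM at the 2-cell stage. At the 4-cell stage it was at 30.0, 7.36 and 2.24 CPM in batch 1 and 5.30 and 8.53 CPM in batch 2. Only embryo 2 of the 5 was above 10 CPM, and the log2 fold change was −1.47 ± 1.54 (edgeR adjusted p = 0.594). The groups overlapped through 2-cell embryo 2 and 4-cell embryo 2.

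Klf9, a hormone-responsive repressor that also binds Sin3, went the other way in its values. It ran from 2.30 to 107 CPM in intact 2-cell embryos (41.3 ± 41.7) and from 21.5 to 94.6 CPM in intact 4-cell embryos (52.4 ± 30.7). Separated 2-cell embryos were at 24.1, 0, 10.1, 54.4 and 31.4 CPM, and separated 4-cell embryos at 109, 89.8, 77.8, 118 and 68.5 CPM. The separated groups did not overlap, but the log2 fold change of 1.94 ± 1.15 did not pass (edgeR adjusted p = 0.284).

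Klf13 and Klf16, relatives of Klf9 that share 72.8% and 71.2% of its finger bases, were at 43.1 CPM or less in every embryo. Klf13 had 11.4 ± 11.2 CPM in intact 2-cell and 7.0 ± 4.70 CPM in intact 4-cell embryos, where 1 of 4 had no count. Klf16 had 10.6 ± 5.98 and 6.74 ± 3.81 CPM. In separated embryos Klf16 went from 12.3 ± 17.4 CPM, with 43.1 CPM in embryo 2 alone, to 0, 3.39 and 0 CPM in batch 1 (log2 fold change −3.44 ± 1.88, edgeR adjusted p = 0.240), while the 2 embryos of batch 2 were at 15.1 and 12.9 CPM. This test passed with limma voom (adjusted p = 0.0493) and without 4-cell embryo 3 (edgeR adjusted p = 0.0296), and over all alternatives the adjusted p ran from 0.0296 to 0.710.

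Klf3, a repressor that acts through CtBP, was detected in 5 of 10 2-cell and 8 of 9 4-cell embryos. It reached 12.4 CPM in intact and 26.7 CPM in separated 2-cell embryos, and 13.7 CPM in intact and 23.3 CPM in separated 4-cell embryos. The log2 fold changes with stage were 0.24 ± 2.14 and −0.06 ± 2.32. These errors are the widest in the family, so changes of several fold in either direction could not be told from none.

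Separation is compared next. An intact embryo is 1 library and a separated embryo is the sum of its blastomeres' libraries, so that an effect of separation and one of library number or input cannot be told apart. No gene of the family was called between separated and intact 2-cell embryos, where edgeR called 0.0142% of all genes tested. The log2 differences of the 9 genes lay between −0.78 ± 1.03 (Klf9) and 0.56 ± 2.02 (Klf3), and the tightest was that of Klf17, 0.50 ± 0.40 with a 95% interval of −0.33 to 1.33.

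At the 4-cell stage also no gene of the family was called, and 0.0% of all genes, with 844 genes at an unadjusted p under 0.05 and 379 called by DESeq2, none of them a KLF gene of the 10. Klf5 came nearest, 1.44 ± 0.50 higher on the log2 scale in separated embryos of batch 1 (unadjusted p = 0.009, edgeR adjusted p = 0.801). Its 4 intact embryos, at 124 CPM or less, were all below the 5 separated embryos, at 126 CPM or more, though by little at the nearest point. Klf13 also did not overlap, at 9.78 CPM or less in intact and 12.2 CPM or more in separated embryos. For all genes tested, 1.76% were higher in separated 4-cell embryos in this way.

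**Figure D3:**
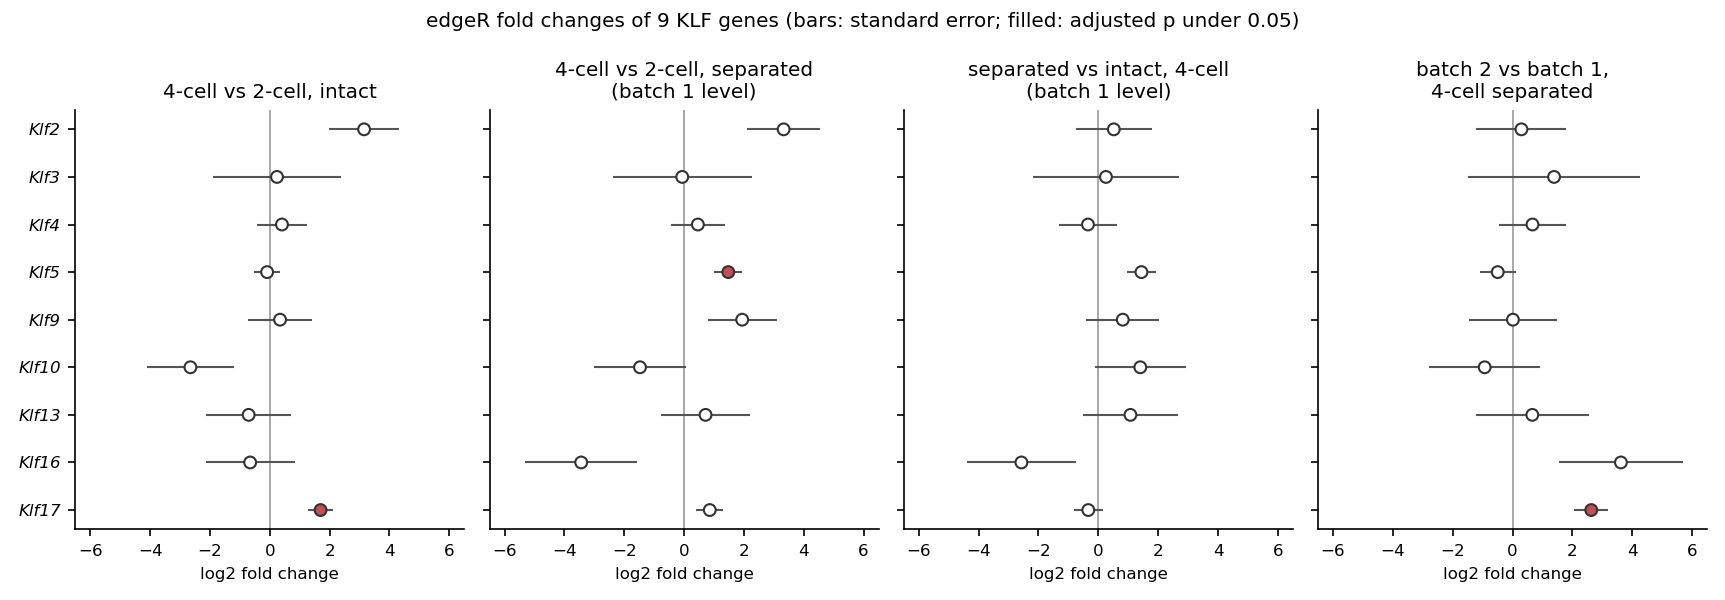
Points are edgeR log2 fold changes of the 9 tested KLF genes in 4 comparisons, with bars of 1 standard error and filled points for an adjusted p under 0.05. Klf17 is filled for the stage in intact embryos and for batch, Klf5 for the stage in separated embryos, and no point is filled for separation.

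Klf17 stood higher in the 2 separated 4-cell embryos of batch 2. Embryos 6 and 7 had 333 and 644 CPM, beside 38.1, 95.4 and 103 CPM in batch 1 and 79.1 to 123 CPM in intact 4-cell embryos. Klf17 was higher in batch 2 by a log2 fold change of 2.63 ± 0.57 (SE, edgeR adjusted p = 0.0156). It was the 1 of 9 genes of the family called, where edgeR called 2.03% of all genes, 0.269% higher and 1.76% lower. With DESeq2 size factors 73 of 280 calls were higher, beside 38 of 286 here, and with limma voom 1330 of 2374.

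Klf17 made up 54.6% of the family's CPM per kb in batch 2 (204 of 373) and 17.1% in batch 1. Klf16 also did not overlap, at 15.1 and 12.9 CPM in batch 2 and at most 3.39 CPM in batch 1 (log2 3.62 ± 2.06, edgeR adjusted p = 0.492). With limma voom Klf16 passed (adjusted p = 0.00197), and over all alternatives its adjusted p ran from 0.00197 to 0.865. Klf17 and Klf16 were 2 of 9 genes, near the 27.9% of all genes tested that were higher in batch 2 without overlap. Klf2 (0.30 ± 1.51), Klf5 (−0.49 ± 0.60) and Klf9 (0.01 ± 1.47) did not pass.

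Other values moved with the batch. The oocyte and early embryo markers summed to 4950 and 7178 CPM in the 2 embryos of batch 2 and to 26750 to 34347 CPM in batch 1, and the median blastomere library held 26.1 M counts in batch 2 and 3.55 M in batch 1. In blastomere 2 of embryo 7, with 2.02 M counts the shallowest library, Klf17 was at 736 CPM. Blastomere libraries detected 11184 to 16519 genes in batch 2 and 7939 to 9936 in batch 1. The part of marker levels, depth and genes detected in the batch difference was not tested. The Klf17 call was lost without separated 4-cell embryo 2 (adjusted p = 0.0787), without embryo 7 (0.260, the highest over the alternatives) and with limma voom (0.0644).

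Sister blastomeres were compared in CPM of each library's own total. Klf2 was found in only 1 of the 2 sisters in each of the 5 separated 2-cell embryos. The sisters with counts had 7, 216, 411, 2003 and 2 counts in embryos 1 to 5, or 0.727, 5.63, 39.9, 45.5 and 0.337 CPM. The sisters without a count had totals of 33.7, 11.3, 12.4, 12.2 and 8.30 M, which allow at most 0.0891 to 0.361 CPM each (3 counts, for counting error only).

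The difference rests on 7 and 2 counts in embryos 1 and 5. In embryo 5 the 0.337 CPM is under the 0.361 CPM allowed for the sister without a count, so these sisters cannot be told apart. The sisters with counts had totals of 9.63, 38.4, 10.3, 44.05 and 5.93 M, so that the sister without a count was the shallower one in embryos 2 and 4. The sister without a count detected 12166, 9589, 9411, 9415 and 10833 genes and the other sister 10117, 11405, 8932, 12089 and 11063. The sister without a count had fewer genes in embryos 2, 4 and 5, and the part of depth and of genes detected in the difference was not tested. Among all genes tested 0.637% had a count in only 1 sister of every pair, and no other KLF gene of the 10 did so in more than 2 pairs. Any count above 0 was enough for this, so that the result for Klf2 includes embryo 5. At the 4-cell stage all 20 blastomeres had Klf2, from 38.0 to 238 CPM, the 12 of batch 1 in libraries of at most 5.23 M counts.

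Klf5 was present in all 30 blastomeres and was among the more even genes between sisters. It ran from 51.1 to 157 CPM in 2-cell blastomeres, from 71.5 to 416 CPM in 4-cell blastomeres of batch 1 and from 132 to 492 CPM in batch 2. The standard deviation between sisters of log2(CPM + 1) was 0.48, 0.68 and 0.27 in these sets. The medians over genes of at least 10 CPM were 1.52, 1.82 and 0.54, and 11.0%, 16.3% and 12.9% of those genes had a smaller value than Klf5. Those genes were not matched to Klf5 in level, which averaged 93.0, 278 and 273 CPM in the 3 sets. The part of level in these shares was not tested. The next lowest share in the family was that of Klf10 at the 2-cell stage (41.2%), Klf2 in batch 1 (18.0%) and Klf17 in batch 2 (15.9%). In 4-cell embryo 3 the Klf5 sisters ran from 71.5 to 334 CPM.

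Klf17 was uneven in part of the embryos. At the 2-cell stage the sisters were at 17.7 and 39.7 CPM in embryo 1, 1.85 and 74.7 in embryo 2, 0 and 60.6 in embryo 3, 42.9 and 70.9 in embryo 4, and 34.5 and 40.3 in embryo 5. Embryos 2 and 3 were the unequal ones, with 21 against 2867 counts and 0 against 750 counts. At the 4-cell stage 1 blastomere of embryo 2 had 1 count (0.212 CPM) beside sisters at 31.8 to 64.3 CPM, and the other 19 blastomeres ran from 31.8 to 895 CPM. The sister standard deviation was 2.44 at the 2-cell stage, 1.59 in batch 1 and 0.29 in batch 2. Of genes of at least 10 CPM, 83.4%, 41.5% and 15.9% had a smaller value in these sets, so only the 2-cell value was above the median gene.

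**Figure D4:**
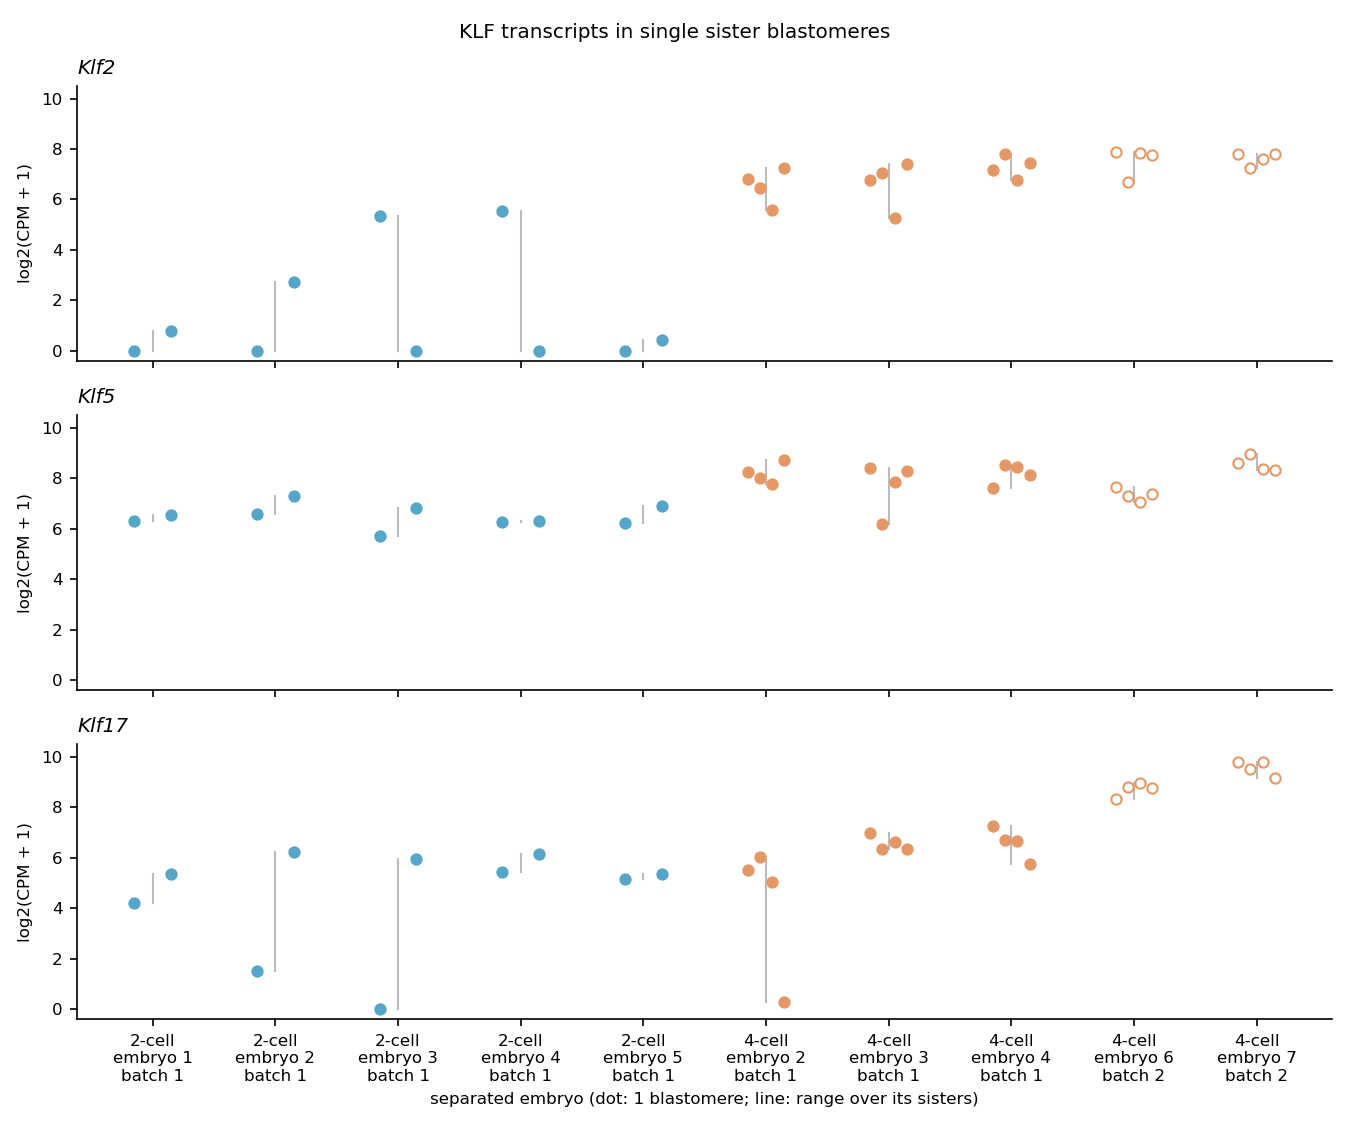
Points are log2(CPM + 1) of Klf2, Klf5 and Klf17 in single blastomeres of the 10 separated embryos, with a line over the range of sisters and open dots for batch 2. In each 2-cell embryo 1 sister is at 0 for Klf2. Klf5 sisters lie closer together, with the widest range in 4-cell embryo 3. Klf17 has 1 sister at or near 0 in 2-cell embryo 3 and 4-cell embryo 2.

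Klf10 was at 10 CPM or more in 9 of 10 blastomeres at the 2-cell and in 5 of 20 at the 4-cell stage, where 6 had no count. In 4-cell embryo 2 a single blastomere at 84.6 CPM held 96.4% of the summed CPM of the 4 sisters, and in embryo 3 one at 29.1 CPM held 96.6%. Its sister standard deviation was 2.33 in batch 1, larger than that of 75.9% of genes of at least 10 CPM, and 2.05 in batch 2, where its mean was under 10 CPM.

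The remaining genes differed in how many blastomeres held them. Klf9 was at 39.1 CPM or more in all 20 4-cell blastomeres and at 0 in 2 of 10 at the 2-cell stage, both of embryo 2. Klf4 was found in 9 of 10 and in 20 of 20, though a sister was at 0 in 2-cell embryo 3 beside 45.6 CPM, and at 0.279 CPM in 4-cell embryo 4 beside up to 42.4 CPM. Klf16 was at 0 in 9 of 12 blastomeres of batch 1, with 7.55 CPM at most, and in all 8 of batch 2 it was at 7.06 CPM or more. The Klf6 counts of 2-cell embryo 5 came from 1 blastomere at 39.5 CPM, and the other 9 2-cell blastomeres had none.

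Whether embryos differ beyond the spread of their sisters was tested with the embryo as a factor within each set. At the 2-cell stage no gene of the family was called, against 0.0333% of 11996 genes. In 4-cell batch 1 again none was called, against 0.152% of 7215 genes. In batch 2 Klf5 was called (F = 36.5, edgeR adjusted p = 0.0235), against 0.794% of 11583 genes, with sisters of embryo 6 at 132 to 201 CPM and of embryo 7 at 323 to 492 CPM. Klf17 also had sisters that did not overlap between these embryos, 321 to 493.5 and 567 to 895 CPM, and an adjusted p of 0.0710.

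Other members of the wider family, the remaining KLF genes and the SP factors that bind the same GC-rich elements, gave no call. Of 17 names 16 were in the table and 9 were tested, and 0 rose and 0 fell in either stage comparison (medians 0.05 and −0.30). The SP factors Sp1 and Sp3 were at 62.0 ± 30.4 and 54.6 ± 41.1 CPM in intact 2-cell and at 71.5 ± 24.3 and 56.7 ± 21.97 CPM in intact 4-cell embryos. Klf11, a paralog of Klf10, had 12.6 ± 6.43 and 28.9 ± 18.1 CPM. Klf14 and Klf15 had no count in any embryo.

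Genes that act with or on KLF proteins are given beside the 10.4% of all genes called in intact and the 11.1% in separated embryos. Of 14 coregulators tested, 1 fell in intact embryos, the Sin3 complex subunit gene Sap30 (90.4 ± 42.5 to 27.9 ± 13.7 CPM, log2 −1.70 ± 0.51, edgeR adjusted p = 0.0394), and 0 changed in separated embryos. Of 14 genes of the LIF, MAP kinase and TGF-beta pathways, which regulate KLF genes in stem cells and other cells, 1 fell in separated embryos, the cytokine receptor kinase gene Jak2 (347 ± 65.7 to 121 ± 53.9 CPM, log2 −1.52 ± 0.38, adjusted p = 0.0152), and 0 changed in intact embryos.

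Of 10 genes for ubiquitin ligases of protein turnover, Siah1a rose in intact embryos (23.7 ± 14.1 to 118 ± 63.4 CPM, log2 2.31 ± 0.60, edgeR adjusted p = 0.0191). Wwp1, a ligase known to act on Klf2 and Klf5 protein, fell in separated embryos (46.7 ± 40.6 to 2.72 ± 2.24 CPM, log2 −4.10 ± 1.21, edgeR adjusted p = 0.0344). The median of the 10 was 1.48 in intact and 0.46 in separated embryos, beside 0.00 and −0.15 over all genes.

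Of 15 pluripotency and lineage genes tested, 2 rose and 1 fell in intact embryos and 2 rose and 2 fell in separated embryos, beside 10.4% and 11.1% of all genes. Nanog, a core pluripotency factor, rose from 0.705 ± 0.308 to 22.1 ± 8.48 CPM in intact embryos (log2 4.96 ± 1.03, edgeR adjusted p = 0.00459). The orphan receptor gene Nr5a2 rose in both (log2 2.54 ± 0.37 and 1.22 ± 0.38) and the 2-cell gene Zscan4d fell in both (−7.39 ± 1.45 and −5.43 ± 1.46). Tead4, a factor of the trophectoderm, rose in separated embryos from 0.132 ± 0.259 to 38.9 ± 8.85 CPM, and Tbx3 fell there from 4.57 ± 3.28 CPM to no count in the 3 embryos of batch 1. None of the genes of these lists was called for batch.

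The genes whose levels over the 19 embryos were most like those of the 3 most abundant family members were taken by Pearson correlation of log2(CPM + 1) among 6029 genes, as a description. All share the same libraries, stage and batch. For Klf2 they were Phb2 (r = 0.93), Eif3a (0.92) and Rpl14 (0.92), which also stood higher at the 4-cell stage (Rpl14 51.6 and 546 CPM in intact embryos). For Klf17 they were Mat2a (0.92), Rps2 (0.90) and Psat1 (0.89), which shared its high level in batch 2 (Mat2a 874 CPM beside 132 CPM in batch 1). For Klf5 they were Emc4 (0.80), Atp5c1 (0.80) and Hnrnpd (0.78).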

How the data were processed

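The authors deposited 1 table of expected counts per gene for all libraries, made with Smart-seq2 libraries per the labels' protocols. Per the submitters' processing notes, the tools were Trim Galore 0.6.10, STAR 2.7.3a and RSEM 1.2.28 with GRCm38. Annotation and strandedness are not given in the sources used here, so overlapping or antisense transcripts could not be separated. Of the non-zero values, 12.6% were not whole, and all were rounded. No column was unused (0) and no libraries were identical.

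Counts of an embryo's blastomeres were summed without making their totals equal. The level of a separated embryo therefore weights each blastomere by its depth, as with 11.3 and 38.4 M counts in 2-cell embryo 2. In an alternative, sisters were thinned to equal totals before summing. All 19 embryos entered 1 edgeR 4.0.16 quasi-likelihood fit (TMM, filterByExpr, 4 groups and batch), with Benjamini-Hochberg adjustment over 14119 genes at 0.05. The fit had 14 residual degrees of freedom and a biological coefficient of variation of 1.43. Standard errors were derived from the F statistic and the log2 fold change. Contrasts with separated 4-cell embryos use the batch 1 level, because batch 2 held separated 4-cell embryos only. The embryo factor was tested among blastomeres in the same way. Both tests were run on simulated counts with known changes, the stage test for intact embryos only. For the embryo test the simulated spread was not estimated from these data, so that run does not measure its error rate here. Exon lengths and positions are from GENCODE M21, promoters from RefSeq (GRCm38.p6). Depth per library was 2.02 to 44.05 M counts.

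All 10 genes are named. The members and lists were chosen with earlier results of these data known. The lists were other KLF and SP genes, coregulators, upstream signals, turnover ligases, pluripotency partners and markers of embryo, cumulus, blood, sperm and oviduct. Alternatives were DESeq2 1.42.0, its size factors, limma 3.58.1 voom, other filters, groups alone, a replicate block, no batch term, batch 2 left out, thinned counts and each embryo left out. R 4.3.3 was used for fits, and Python 3.11.15 with pandas 2.3.3, numpy 2.4.6 and matplotlib 3.10.9 for the rest.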

Additional observations from a re-analysis of the deposited data

Results flagged for a closer look

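In 9 of the 39 sets of 1 gene in 1 group that were examined, the highest or lowest embryo stood apart from the rest by Dixon's 95% criterion. Its rate of about 1 in 20 holds for normally distributed values only. CPM with many embryos at or near 0 need not follow it, and a set with counts in only 1 embryo meets the criterion by construction. The separated 4-cell sets also hold both batches. The number of sets therefore cannot be set against that rate. Klf2 was at 30.3 CPM in intact 2-cell embryo 1, beside 0.164 to 7.89 CPM in the others. Klf5 was at 162 CPM in separated 2-cell embryo 2, beside 84.0 to 92.6 CPM, and Klf16 at 43.1 CPM in the same embryo, beside 0.0485 to 6.33 CPM. Klf3 was at 26.7 CPM in separated 2-cell embryo 5, beside 6.498 CPM or less, and Klf6 at 22.1 CPM in that embryo, beside 0. Klf6 was at 10.7 CPM in intact 2-cell embryo 2, where no other intact 2-cell embryo had a count. Klf10 was at 19.8 CPM in intact 4-cell embryo 4, beside 0 in the others, and at 30.0 CPM in separated 4-cell embryo 2, beside 2.24 to 8.53 CPM. Klf13 was at 0 in intact 4-cell embryo 5, beside 8.55 to 9.78 CPM.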

How the results depend on the processing

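Klf17, Klf2 and Klf10 for the stage in intact embryos, Klf5, Klf2, Klf9, Klf10, Klf16 and Klf17 for the stage in separated embryos, and Klf17 and Klf16 for batch kept their direction in the settings run. Other values did not. Klf5 for the stage in intact embryos (−0.09) was 0.078 with limma voom. It ran from −0.34 to 0.32 with an embryo left out, above 0 without intact 2-cell embryo 1. Values further from 0 also took the other sign. Klf17 for the interaction (−0.84) was 0.79 without a batch term. Over the settings Klf10 for 4-cell separation (1.40) reached −0.05 and Klf4 for batch (0.67) reached −0.65. Of 54 values of the family, 25 took the other sign in some setting, in 66 of 1570 fits, of which 0 passed the test. For the stage in intact embryos the number of KLF genes called, 1 in the main analysis, was 2 with the compared groups alone, with embryos thinned to 2.74 M counts, with DESeq2 and with limma voom, 0 without a batch term, and 0 to 1 with an embryo left out. For separated embryos, also 1, it was 3 without a batch term, 2 with sisters thinned, with DESeq2 and with limma voom, and 0 to 1 with an embryo left out. Klf2 passed in 5 of 30 settings in intact and 6 of 30 in separated embryos, Klf17 in 25 of 30 in intact embryos and Klf5 in 11 of 30 in separated embryos, and the cause was not tested. For batch the count was 0 to 1 with an embryo left out. In the embryo test of batch 2 it was 2 with blastomeres thinned to the smallest total. The counts for separation, for the interaction and for the other embryo tests were 0 in every setting.

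Under a replicate block, the count for the stage in separated embryos was 0 (Klf5 adjusted p = 0.102). Residuals of same-numbered embryos had correlations of −0.07 to 0.05 over 21 pairs, and the numbers mark no pairing in the labels. Batch could not be fitted with the block, since 2 of the numbers occur in batch 2 only.

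Over all genes, calls for the stage in intact embryos were 737 with the block, 3047 with DESeq2, 2845 with limma voom and 798 to 1650 with an embryo left out, beside 1469. In separated embryos they were 711 with the block, 2543 without a batch term, 3210 with DESeq2 and 811 to 1653 with an embryo left out, beside 1568. For batch they ran from 64 with an embryo left out to 2374 with limma voom, beside 286. Higher calls for batch were 38 of 286 in the main analysis, 73 of 280 with DESeq2 size factors, 479 of 1153 with the compared groups alone, 512 of 1276 with DESeq2 and 1330 of 2374 with limma voom. With DESeq2 size factors the median over all genes for the stage in intact embryos moved from 0.00 to −0.13. At 2.74 to 4.19 M counts, an intact 4-cell embryo with no count, as for Klf6, Klf10 and Klf13, allows up to 1.12 CPM.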
